A study of Mus musculus with 8 samples.

Results

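The vacuolar H+-ATPase (v-ATPase) and proteins of the lysosomal membrane were described in mouse pancreatic tumour cells as a set of 39 genes of 21425 protein-coding genes. The set took 26 genes by symbol prefix (Atp6v0, Atp6v1 or Atp6ap) and 13 by name: Lamp1, Lamp2, Cd63, Scarb2, Npc1, Npc2, Mcoln1, Slc38a9, Cln3, Ctns, Laptm4a, Laptm4b and Tmem192. The prefix also took Atp6v1fnb, which is not a pump subunit.

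The cells were KRPC-A cells, PDAC-like (pancreatic ductal adenocarcinoma-like) tumour cells from genetically engineered C57BL/6 mice, either Gcn2 wild type (WT) or Gcn2 knockout (KO). Each genotype was kept for 1 h in amino-acid-replete medium or in medium without leucine. RNA-seq and ribosome profiling were run on each of the 4 conditions, which gave 8 groups of 1 library. The sources used here do not say how the knockout was made, nor whether its cells descend from 1 clone. Without replicates no p-value can be given. Intervals are 95% counting intervals and cover counting error only, and since reads carried no molecular identifiers, PCR copies make the true error larger. Pairs of values for 1 genotype are given as replete, then leucine-free medium.

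Total counts ran from 49136610 to 60680169 in the RNA-seq libraries. The footprint libraries, in which reads are the mRNA fragments shielded by ribosomes, held 2671491 to 9993211, with the fewest in WT leucine-free cells. Transcripts of Eif2ak4, the gene of GCN2, stood at 85.7 and 69.7 CPM (counts per 1000000) in WT cells and at 13.6 and 16.7 CPM in KO cells. Of 9 markers of duct and epithelium, 6 were measured, and together their RNA reached 244 and 333 CPM in the WT libraries, and 485 and 1100 CPM in the KO libraries. The defining marker Epcam was at or near 0 CPM and Krt19 at no more than 0.6 CPM. Of 6 fibroblast markers, 3 were measured, at a summed 1570 to 1930 CPM, most of it Col3a1, while Dcn, Lum and Pdpn were at or near 0. Summed acinar, immune and endothelial markers were at no more than 0.452 CPM.

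The v-ATPase is a rotary proton pump. Its cytosolic V1 sector hydrolyses ATP and turns a central stalk, and its membrane-embedded V0 sector carries protons into the lysosome. The acid lumen lets hydrolases break down protein that the cell has taken up, and transporters then return the amino acids to the cytosol. Pancreatic tumour cells are known for feeding on scavenged protein in this way. The pump and the transporter Slc38a9 are also part of the machinery that signals lysosomal amino acids to the kinase mTORC1. Transcription factors of the MiT/TFE family (Tfeb, Tfe3, Mitf) bind E-box motifs in the promoters of many of these genes.

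Promoter sequences are shown for the members that carried such an E-box, because the RNA response to leucine withdrawal is set against them further on. RefSeq windows (GRCm38.p6, 250 bases before to 50 after the gene start) were found for 30 of the 39 members. The palindrome CACGTG, which reads the same on both strands, occurred in 7 of these 30 (23.3%), against 9.02% of 16809 protein-coding genes. Its 8-base extension TCACGTGA, which contains it and is also palindromic, occurred in 5 of 30 (16.7%), against 1.43% of all genes. The stretches below are read along the gene's own strand, with CACGTG in capitals.
Lamp1, chr8:13159088-13159160 (+): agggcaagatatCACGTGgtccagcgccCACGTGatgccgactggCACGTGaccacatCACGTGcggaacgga
Mcoln1, chr8:3500436-3500491 (+): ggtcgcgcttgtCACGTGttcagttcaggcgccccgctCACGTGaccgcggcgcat
Cln3, chr7:126583340-126583397 (-): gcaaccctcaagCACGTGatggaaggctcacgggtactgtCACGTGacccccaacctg
Atp6v0b, chr4:117887330-117887377 (-): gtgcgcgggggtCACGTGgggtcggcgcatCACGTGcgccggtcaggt
Atp6v1a, chr16:44139373-44139402 (-): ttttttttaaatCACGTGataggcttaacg
Atp6v0d1, chr8:105566050-105566079 (-): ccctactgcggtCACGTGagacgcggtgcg
Atp6v0e, chr17:26676387-26676416 (+): tagcgcgccgatCACGTGagcctctgttga
Lamp1 held 4 copies, all within 61 bases before its start. Mcoln1, Cln3 and Atp6v0b held 2 each, and the others 1. The 8-base form was present in Mcoln1, Cln3, Atp6v1a, Atp6v0d1 and Atp6v0e. A match is only a match of letters in these windows.

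Of the 39 members, 30 had a mean of at least 30 counts in both assays and are called measured, as were 10817 protein-coding genes in RNA-seq and 9172 in footprints. The 9 others were the tissue-restricted isoforms Atp6v0d2, Atp6v0e2, Atp6v1b1, Atp6v1c2, Atp6v1e2, Atp6v1g2 and Atp6v1g3, together with Atp6ap1l and Atp6v1fnb. Atp6v1g2 had 23 to 36 RNA counts per library, and no other of the 9 had more than 6. Atp6v1e2, Atp6v1g3 and Atp6v1fnb had 0 counts in all 8 libraries, which at 3 counts allows up to 0.0967 CPM in the RNA-seq library and 1.25 CPM in the footprint library where this limit is highest. The upper ends of the 95% intervals there were 0.119 and 1.54 CPM. The measured members were deeply covered, with a median of 2376 RNA counts and 568 footprint counts per gene, against 1390 and 255 over all measured genes. Counting intervals narrow with depth, so in every comparison below they leave out 0 more readily for the members than for all genes.

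Each subunit with several gene copies was carried by 1 gene in these cells, apart from the a subunit. Shares were taken from levels per exonic length (RPKM, the CPM divided by the exonic length in kilobases). Atp6v1b2, Atp6v1c1, Atp6v1e1, Atp6v1g1, Atp6v0d1 and Atp6v0e made up at least 98.6% of their subunit's level in every library of either assay. The a subunit, which lines the proton path and directs the pump to its membrane, was shared among 4 genes once Tcirg1, the a3 gene, which lacks the prefix, was counted with the members. In RNA of WT replete cells Atp6v0a1 made up 41.4%, Atp6v0a2 38.7%, Tcirg1 15.9% and Atp6v0a4, the kidney-type isoform, 4.01%. In footprints of the same cells Atp6v0a1 made up 55.7%, Tcirg1 21.2%, Atp6v0a2 19.4% and Atp6v0a4 3.67%. Atp6v0a1 thus led in both assays, and Atp6v0a2 held a smaller share of footprints than of RNA in all 4 conditions. In KO cells Atp6v0a2 made up 30.2% and 30.6% of the RNA.

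Per exonic length Lamp1, Lamp2, Cd63, Laptm4a and Laptm4b stood above most pump subunits in WT replete cells, while Scarb2 (13.3 RPKM in RNA) and Tmem192 (9.31 RPKM) did not. RNA of Lamp1, a major glycoprotein of the lysosomal membrane, was at 304 and 344 RPKM in WT cells and at 305 and 309 RPKM in KO cells, the highest of the members in each library. RNA of Atp6ap2 (143 RPKM), Laptm4a (136 RPKM) and Atp6v1g1 (86.3 RPKM) followed in WT replete cells. In footprints Laptm4a, a small lysosomal membrane protein, was at 416 and 355 RPKM in WT and 388 and 326 RPKM in KO cells, and Lamp1 at 374 and 300.4 in WT and 329 and 351 in KO cells. Laptm4a led in 3 conditions and Lamp1 in KO leucine-free cells. The lowest measured member per exonic length was Slc38a9, the arginine-sensing transporter, at 0.389 RPKM in RNA and 0.482 RPKM in footprints of WT replete cells. Its exonic length, 16704 bases, is the longest of the members, and in counts it was not the lowest. Its RNA held 253 to 332 counts per library, against 146 to 288 for Cln3. Its footprints reached 73 counts, against 61 for Atp6v0a4.

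The 5 subunits A, B, E, G and c are present in several copies per pump and the others singly. In WT replete cells the several-copy subunits had a median RNA level of 28.9 RPKM (8.51 to 86.6), against 15.3 RPKM (8.20 to 33.2) for the 8 single-copy subunits. In footprints the medians were 26.6 and 30.6 RPKM, so the order of the RNA medians was not seen there. The ranges overlapped in both assays. The a subunit was summed here over Atp6v0a1, Atp6v0a2 and Atp6v0a4, without Tcirg1 (6.28 RPKM in RNA and 7.57 RPKM in footprints). Atp6v0c, the gene of the c ring, has near-identical pseudogene copies, and reads that map to several places were not counted, so its level is uncertain.

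The other pump subunits, given here as their leading gene, covered a wide range of levels with smaller differences between libraries. RNA of Atp6v1b2, the B subunit that forms the head with A, was at 174 and 206 CPM in WT and 167 and 183 CPM in KO cells, and its footprints at 238 and 232 against 222 and 193 CPM. RNA of Atp6v1d, the rotor shaft, was at 51.8 and 64.0 CPM in WT and 57.4 and 64.3 CPM in KO cells, with footprints at 93.8 and 81.1 against 65.2 and 72.6 CPM. RNA of Atp6v1g1 was at 98.0 and 117 CPM in WT and 124 and 127 CPM in KO cells, with footprints at 27.2 and 26.3 against 25.5 and 19.2 CPM. RNA of these 3 genes was higher without leucine in either genotype, although for Atp6v1g1 in KO cells the interval held 0 (0.03, -0.03 to 0.09). Both KO footprint libraries lay below both WT libraries in value, but for each gene some of the KO and WT counting intervals overlapped.

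In the membrane sector, Atp6v0a1 had the most even levels, with RNA at 103 to 108 CPM and footprints at 130.0 to 137 CPM in the 4 conditions. RNA of Atp6v0d1, which couples the stalk to the ring, was at 33.6 and 39.0 CPM in WT and 25.5 and 32.7 CPM in KO cells, and its footprints at 133 and 114 against 94.7 and 78.8 CPM. RNA of Atp6v0e was at 56.4 and 74.0 CPM in WT and 61.5 and 73.9 CPM in KO cells, while its footprints stayed within 104 to 114 CPM. RNA of both was higher without leucine in each genotype. Atp6v0b, too, had higher RNA without leucine in KO cells, at 31.8 and 43.5 CPM, with footprints at 107 and 112 CPM. RNA of Atp6v0a2 was highest in WT replete cells, at 103 CPM, against 85.0 CPM in WT leucine-free and 71.9 and 68.1 CPM in KO cells, and its footprints were at 46.4 and 51.8 CPM in WT and 31.2 and 31.1 CPM in KO cells.

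The remaining lysosomal members stood at lower levels than Lamp1, Lamp2 and Cd63. RNA of Scarb2, the receptor that carries glucocerebrosidase to lysosomes, was at 83.8 and 84.9 CPM in WT and 57.6 and 57.3 CPM in KO cells, and its footprints at 96.1 and 92.3 against 70.8 and 70.2 CPM. RNA of Ctns, the cystine exporter, was at 15.8 and 15.9 CPM in WT and 11.6 and 13.9 CPM in KO cells, with footprints at 34.8 and 27.6 against 26.0 and 19.5 CPM. Both genes were lower in KO than in WT libraries of either assay. Npc1, the membrane partner of Npc2 in cholesterol export, stood at 35.3 to 41.4 CPM in RNA and 42.4 to 51.6 CPM in footprints, and Tmem192 at 16.1 to 16.4 and 11.4 to 15.99 CPM. Slc38a9 footprints were at 4.87 to 8.05 CPM, from 13 to 73 counts, too few to tell the conditions apart.

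**Figure D1:**
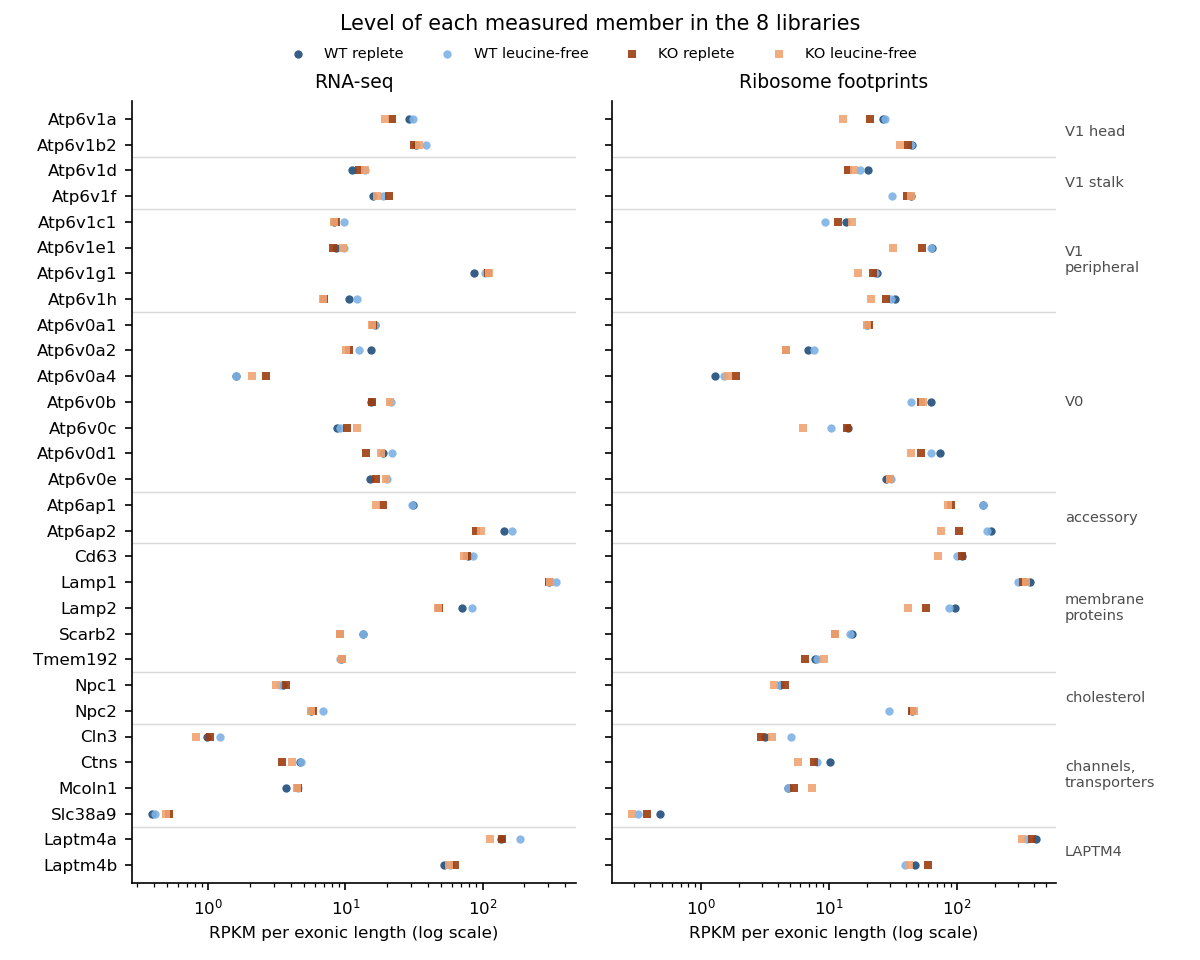
Level per exonic length (RPKM, log axis) of the 30 measured members in each of the 8 libraries, RNA-seq left and footprints right, grouped by role. Points are single libraries, with no error across cultures. Lamp1 and Laptm4a sit highest and Slc38a9 lowest, and the KO points of Atp6ap1, Atp6ap2 and Lamp2 lie to the left of the WT points.

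Footprints relative to RNA differed widely between members in unstarved WT cells. Dividing a gene's normalised footprints by its normalised RNA gives its translation efficiency (TE), stated here as log2. RNA reads cover the whole transcript and footprints mainly its coding part, so levels of TE between genes also depend on the coding share of each transcript. The members' median was 0.48, against 0.04 over all 9100 genes measured in both assays, and 24 of 30 stood above that value. The highest were Npc2, the soluble cholesterol carrier of the lysosome, at 3.01 (2.91 to 3.11), Atp6v1e1, of the peripheral stalk, at 2.93 (2.84 to 3.03), and Atp6ap1, an accessory protein needed for pump assembly, at 2.36 (2.30 to 2.42). The lowest were Atp6v1g1, the stalk partner of Atp6v1e1, at -1.84 (-2.03 to -1.66), Atp6v0a2 at -1.14 (-1.29 to -0.9996) and Atp6v0a4 at -0.27 (-0.66 to 0.13). Subunits that sit side by side in the pump, such as E and G, thus lay at opposite ends of the members' range. The members' median was 0.24 in WT cells without leucine, and 0.41 and 0.28 in KO cells with and without it.

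**Figure D2:**
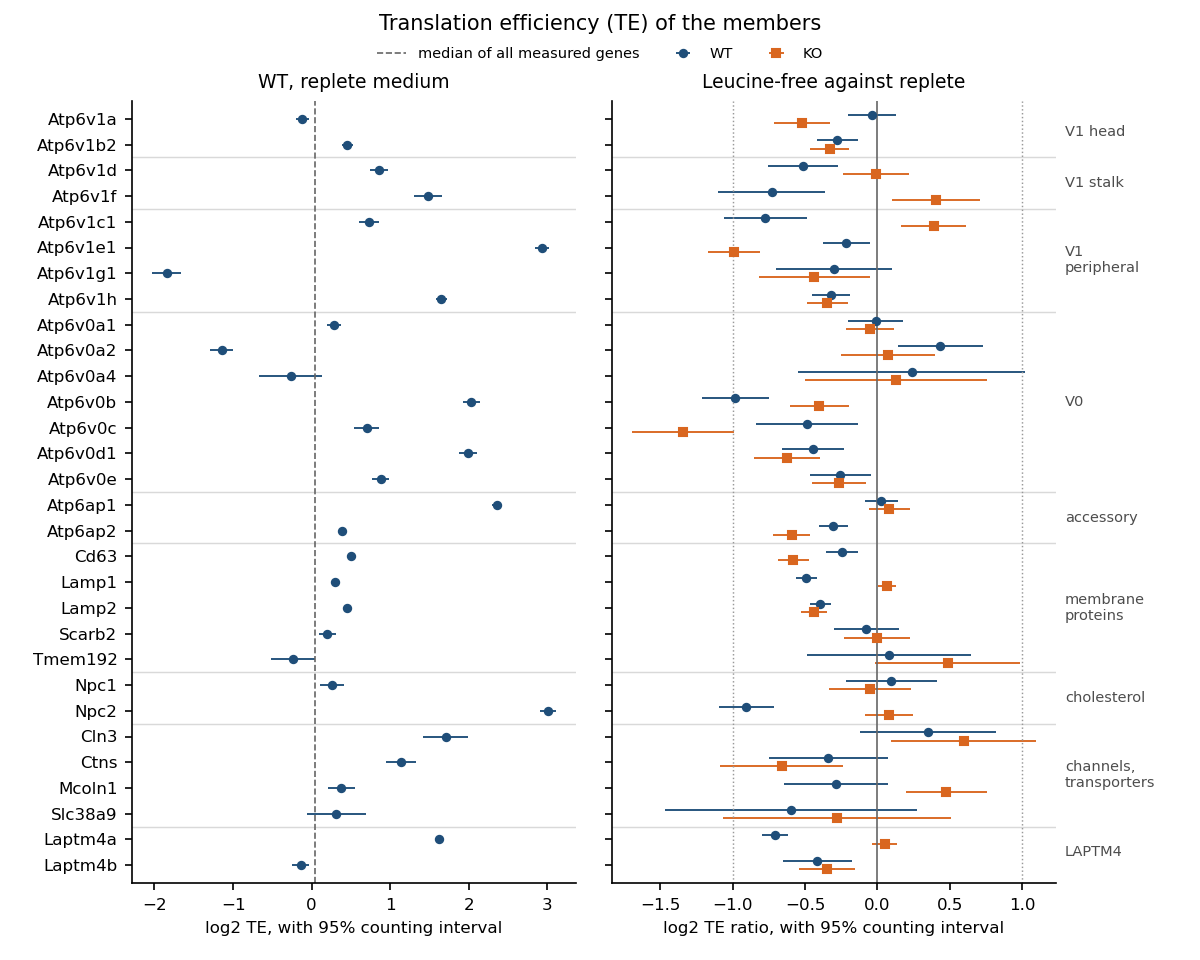
Left, log2 TE of each member in WT replete cells, with the median of all measured genes dashed; right, the log2 ratio of TE in leucine-free against replete medium in WT (circles) and KO (squares) cells. Bars are 95% counting intervals and dotted lines mark 2-fold. Npc2 and Atp6v1e1 stand highest and Atp6v1g1 lowest on the left, and most WT points lie below 0 on the right.

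In WT cells, 1 h without leucine went with slightly higher RNA and slightly lower footprints of most members. Ratios are log2 of leucine-free over replete normalised counts, and a gene rose or fell when it differed at least 2-fold with an interval that left out 0. No member passed 2-fold in RNA, footprints or TE, against 1.71%, 1.46% and 2.93% of all genes. RNA was above 0 for 26 of 30 members with a median of 0.20 (all genes 0.00, of which 50.7% were above 0). Intervals lay wholly above 0 for 20 of 30, against 32% of all genes, which have lower counts. All 8 measured V1 subunits were above 0 in RNA, from 0.09 to 0.31, and the 7 V0 subunits ran from -0.27 for Atp6v0a2 to 0.47 for Atp6v0b. Across all genes these RNA ratios also fell with exonic length (Spearman rho -0.38 over 10817 genes of the same 2 libraries), and the members' median was 0.07 once that trend was removed. Counts are relative within a library, and in bulk cells less RNA per cell and fewer cells with the RNA cannot be told apart.

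Footprints in WT cells lay below 0 for 22 of 30 members, with a median of -0.10 (all genes 0.01). Intervals lay wholly below 0 for 12 of 30, against 15.2% of all genes. TE lay below 0 for 24 of 30 members with a median of -0.30, and for 17 the interval was wholly below 0, against 23.2% of all genes. All 8 V1 subunits were below 0 in TE, from -0.77 for Atp6v1c1 to -0.04 for Atp6v1a. With the length trend removed the members' TE median was -0.19.

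The 2 assays moved apart most clearly in a few members. RNA of Laptm4a was at 241 CPM in replete and 335 CPM in leucine-free WT cells, a log2 ratio of 0.48 (0.44 to 0.51), while its footprints were at 738 and 629 CPM, a ratio of -0.23 (-0.31 to -0.15). RNA of Atp6v0b, the c'' subunit of the ring, was at 31.7 and 43.8 CPM (0.47, 0.36 to 0.57) and its footprints at 130 and 90.7 CPM (-0.51, -0.73 to -0.31). RNA of Npc2 was at 30.2 and 37.2 CPM (0.30, 0.19 to 0.41) and its footprints at 244 and 160 CPM (-0.61, -0.77 to -0.45). In each of these genes RNA was higher and footprints lower without leucine, so TE ratios were -0.71 for Laptm4a, -0.98 for Atp6v0b and -0.91 for Npc2. Cln3, the gene mutated in juvenile Batten disease, went the other way in footprints, at 18.4 and 29.3 CPM (0.67, 0.24 to 1.08), from 167 and 70.0 counts. Atp6v0a2 had lower RNA (-0.27) and a higher TE (0.44, 0.14 to 0.73), the highest TE ratio of the members in WT cells.

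In KO cells RNA of the members was spread around 0, while footprints were again lower for most. The RNA median was -0.02, with 11 of 30 above 0. No member passed 2-fold in RNA, against 3.17% of all genes. Footprints had a median of -0.20 with 21 of 30 below 0, and intervals lay wholly below 0 for 14 of 30, against 22.9% of all genes, which have lower counts. TE had a median of -0.16, with intervals wholly below 0 for 14 of 30, against 26.1% of all genes. Atp6v0c passed 2-fold in footprints and in TE, where 2.09% and 2.99% of all genes did.

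Footprints of Atp6v0c (ENSMUSG00000024121, GRCm38 chr17:24163866-24169702) were at 47.9 and 35.5 CPM in WT cells, from 434 and 85 counts, and at 47.0 and 21.6 CPM in KO cells, from 304 and 93 counts. The KO leucine-free library stood below the other 3. Without leucine the footprints of KO cells fell by 1.12 on the log2 scale (interval -1.47 to -0.78) and the TE by 1.34 (-1.70 to -0.99), with RNA at 0.23 (0.11 to 0.34). Its pseudogenes had at most 7 counts in any library. Reads that map to several places were not counted, so this cannot show how many reads the copies share with Atp6v0c. The same KO leucine-free library enters the comparison with WT leucine-free cells, where the TE of Atp6v0c fell by 1.13 (-1.57 to -0.69) and was the only member past 2-fold, against 5.95% of all genes.

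Within V1, the subunits split in KO cells. Footprints of Atp6v1e1 (ENSMUSG00000019210, chr6:120794305-120822793) were at 267 and 261 CPM in WT and 219 and 130.3 CPM in KO cells. Those of Atp6v1a (ENSMUSG00000052459, chr16:44085402-44139705), the catalytic A subunit, were at 161 and 167 CPM in WT and 126 and 78.4 CPM in KO cells. Both were level in WT cells and lowest in KO cells without leucine, with KO ratios of -0.75 (-0.89 to -0.61) and -0.69 (-0.88 to -0.50). Atp6v1c1 (ENSMUSG00000022295, chr15:38661933-38692446), which joins stator and head, was at 76.3 and 52.7 CPM in WT and 66.9 and 86.0 CPM in KO cells. Atp6v1f (ENSMUSG00000004285, chr6:29467718-29470512), of the central stalk, was at 47.2 and 33.4 CPM in WT and 43.3 and 46.6 CPM in KO cells. Both were lowest in WT cells without leucine, and Atp6v1c1 was higher without leucine in KO cells (0.36, 0.16 to 0.57). Footprints of Mcoln1, the lysosomal calcium channel, were at 36.2 and 36.4 CPM in WT and 40.9 and 56.1 CPM in KO cells, highest in KO cells without leucine (0.45, 0.20 to 0.71). Those of Cd63, a tetraspanin, were at 409 and 374 CPM in WT and 408 and 262 CPM in KO cells, and lowest in that library (-0.64, -0.74 to -0.54).

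**Figure D3:**
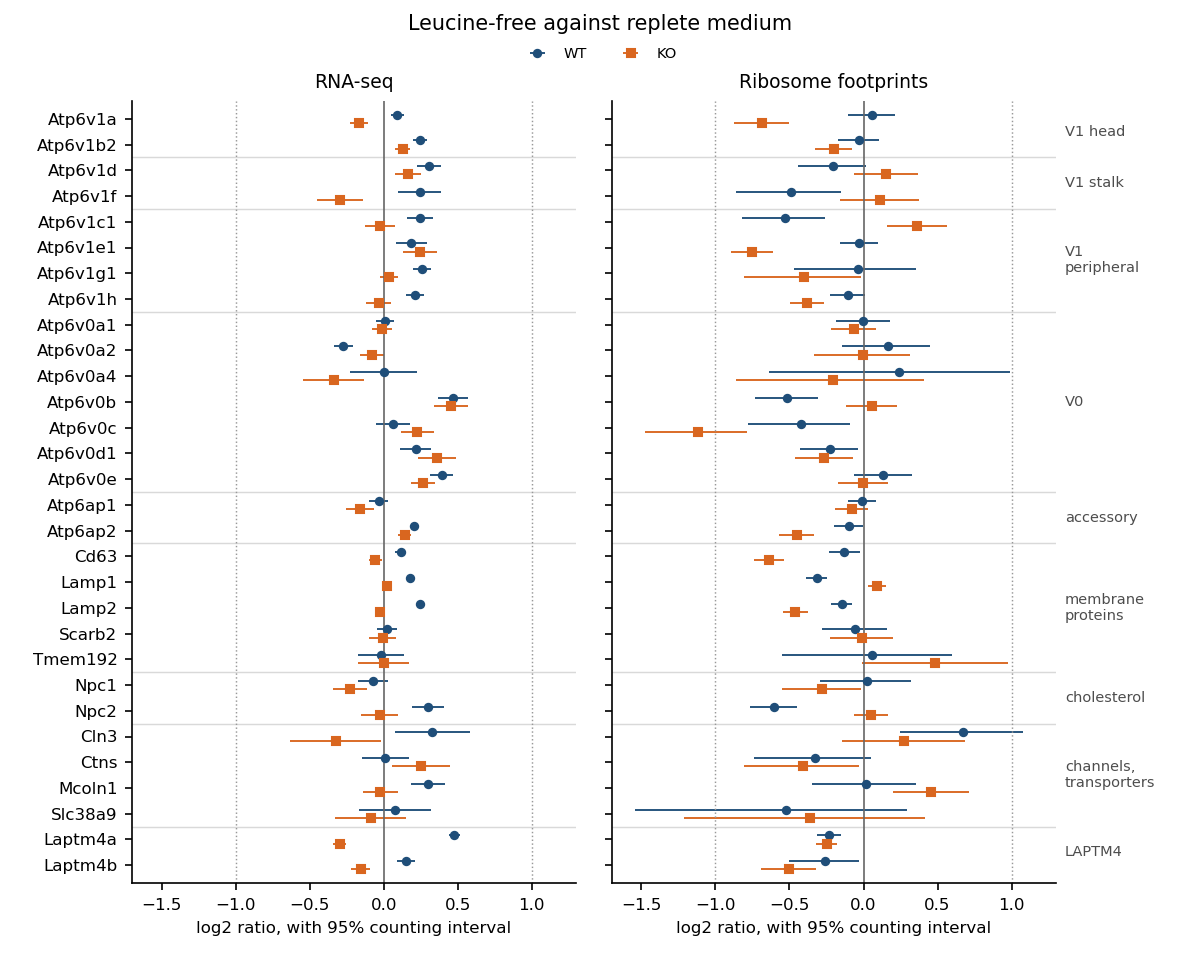
Log2 ratio of leucine-free against replete medium for each member in RNA-seq (left) and footprints (right), in WT (circles) and KO (squares) cells. Bars are 95% counting intervals and dotted lines mark 2-fold. Most WT RNA points lie above 0, and the squares of Atp6v0c, Atp6v1e1 and Atp6v1a reach furthest below 0 in footprints.

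The difference of the leucine responses, WT minus KO, was taken gene by gene with its own counting interval, since a value past a threshold in 1 genotype says nothing of the other. In RNA the members' median was 0.15 (all genes -0.005), with 24 of 30 above 0. With the length trend removed this RNA median was 0.14. No member passed 2-fold in RNA or in footprints, against 4.67% and 4.6% of all genes. The largest RNA difference was that of Laptm4a (0.78, 0.72 to 0.83), whose RNA was at 246 and 200.1 CPM in KO cells. In footprints the median was 0.11 (all genes 0.02) with 20 of 30 above 0. The 3 highest were Atp6v1a (0.74, 0.50 to 0.99), Atp6v1e1 (0.72, 0.53 to 0.91) and Atp6v0c (0.69, 0.22 to 1.17), and the 3 lowest were Atp6v1c1 (-0.89, -1.23 to -0.55), Npc2 (-0.66, -0.85 to -0.46) and Atp6v1f (-0.60, -1.03 to -0.17). Subunits of V1 thus stood at both ends. In TE, Atp6v1c1 (-1.16, -1.53 to -0.80) and Atp6v1f (-1.13, -1.61 to -0.65) passed 2-fold, against 7.81% of all genes. With the length trend removed Atp6v1f was at -0.87 and no longer passed. Npc2 fell just short of 2-fold at -0.98 (-1.24 to -0.73), and passed at -1.05 with scaling to total counts and -1.06 with TMM (trimmed mean of M-values) factors over all protein-coding genes.

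KO cells had lower levels than WT cells of all X-linked members, in both media and both assays. These were Atp6ap1 (ENSMUSG00000019087, GRCm38 chrX:74297097-74304721), Atp6ap2 (ENSMUSG00000031007, chrX:12587801-12617049) and Lamp2 (ENSMUSG00000016534, chrX:38401357-38456454), the lysosomal glycoprotein that serves as receptor in chaperone-mediated autophagy. RNA of Atp6ap1 was at 94.6 and 92.4 CPM in WT cells and at 56.9 and 50.8 CPM in KO cells, and its footprints at 486 and 483 against 274 and 259 CPM. RNA of Atp6ap2, the accessory protein also known as the prorenin receptor, was at 374 and 431 against 233 and 257 CPM, and its footprints at 488 and 456 against 272 and 199 CPM. RNA of Lamp2 was at 679 and 805 against 459 and 452 CPM, and its footprints at 930.4 and 839 against 549.7 and 399.6 CPM. For each of these 3 genes every KO library lay below every WT library of the same assay. RNA log2 ratios of KO against WT were -0.73, -0.68 and -0.56 in replete and -0.86, -0.75 and -0.83 in leucine-free medium, in the order Atp6ap1, Atp6ap2, Lamp2. Footprint ratios were -0.83, -0.84 and -0.76 in replete medium and -0.90, -1.20 and -1.07 in leucine-free medium.

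The X chromosome as a whole was lower in KO cells. Its 346 measured genes had a median RNA ratio of -0.43 in replete medium with 87.9% below 0, and -0.45 in leucine-free medium with 85.3% below 0, the lowest of 20 chromosomes each time. The autosomes had medians of 0.01 and 0.02. In footprints the X medians were -0.51 and -0.60 over 295 genes. The 3 members lay below these medians, by 0.13 to 0.30 in RNA of replete medium. Chromosomes 3 (-0.24) and 5 (-0.19) were next lowest in RNA of replete medium, and the 2 members on chromosome 5, Scarb2 and Atp6v0a2, were at -0.54 and -0.51. The part of the chromosome in the members' values was not tested.

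**Figure D4:**
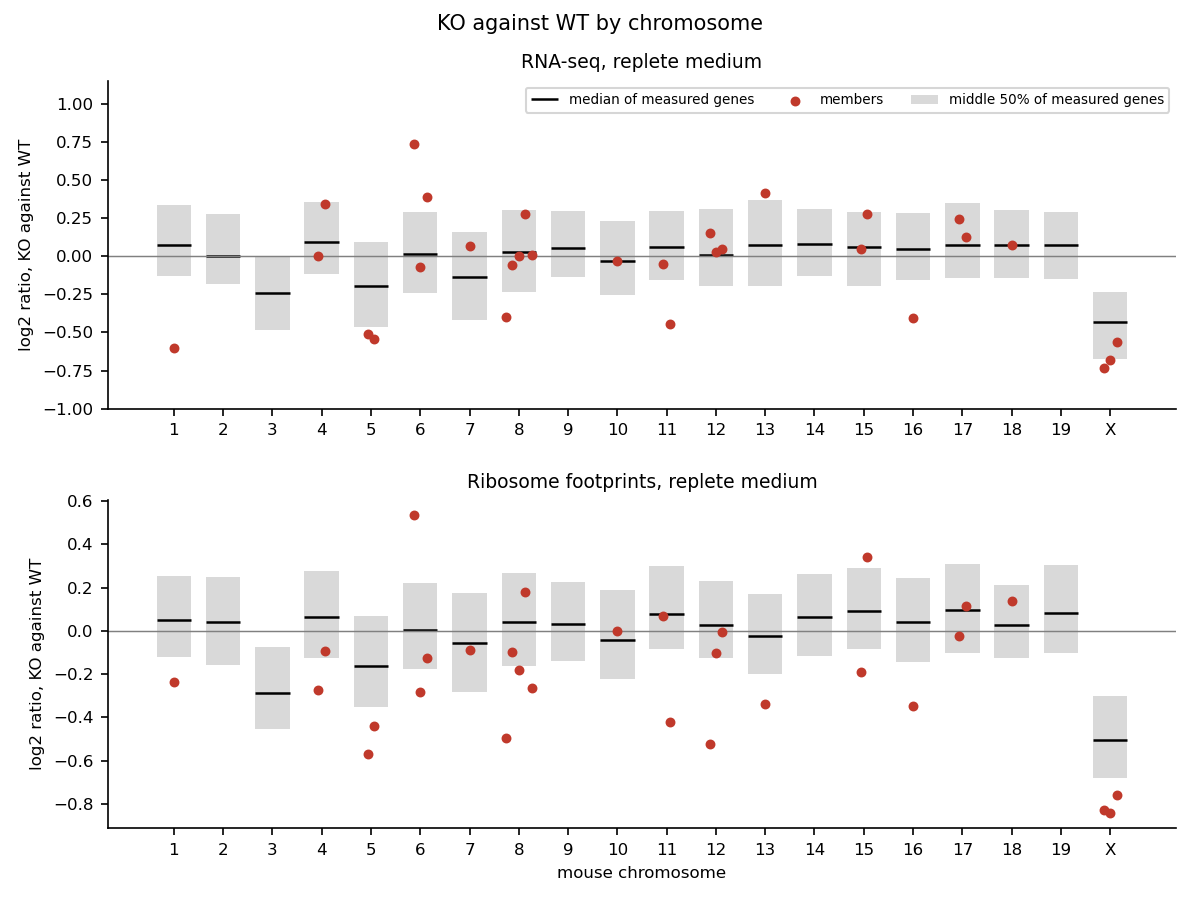
Log2 ratio of KO against WT in replete medium by chromosome, in RNA-seq (top) and footprints (bottom). Grey bars span the middle 50% of measured genes, black lines are medians and red points are members. The 3 X-linked members sit with the lowest chromosome median, and members on other chromosomes lie on both sides of 0.

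Over all members, the RNA median of KO against WT was 0.01 in replete medium and -0.16 in leucine-free medium. No member passed 2-fold in RNA in either medium, against 6.86% and 8.39% of all genes. In leucine-free medium 24 of 30 lay below 0, and intervals were wholly below 0 for 17 of 30, against 37.3% of all genes. On the autosomes Atp6v1h, the regulatory H subunit, had the lowest values, at 103 and 119 CPM in WT against 67.9 and 66.3 CPM in KO cells, ratios of -0.60 and -0.85. Atp6v1a was at -0.40 and -0.66. Atp6v0a4 had the highest RNA ratio in replete medium, 0.74 (0.54 to 0.94), from 331 and 504 counts. The summed duct and epithelial markers, given above, were also higher in KO cells. Most of that sum was Sox9 (751 CPM in KO leucine-free cells) and Krt18 (283 CPM), while Krt19 was at 0.595 and 0.319 CPM in WT and 0.261 and 0.226 CPM in KO cells. Of the measured fibroblast markers Col1a1 was lower in KO cells, with RNA ratios of -1.71 and -1.51. Col3a1 was level, at 0.03 and -0.07, and Pdgfrb was higher, at 0.34 and 0.39. The part of these markers in the members' values was not tested.

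In footprints of replete medium no member passed 2-fold, against 3.03% of all genes. The median was -0.19, 24 of 30 lay below 0, and intervals were wholly below 0 for 16 of 30, against 25.4% of all genes. All 8 V1 subunits were below 0, from -0.52 for Atp6v1d to -0.09 for Atp6v1g1, although 4 of them had RNA above 0. In leucine-free medium Atp6ap2, Lamp2, Atp6v1a and Atp6v1e1 fell past 2-fold, against 7.23% of all genes in either direction. Atp6v1a fell by 1.09 (-1.31 to -0.88) and Atp6v1e1 by 1.00 (-1.17 to -0.84). Atp6v1e1 lay at the threshold and was at -0.93 with scaling to total counts. Atp6v1c1 (0.70, 0.41 to 1.01), Npc2 (0.65, 0.48 to 0.82) and Mcoln1 (0.62, 0.27 to 1.00) were the highest. In TE no member passed 2-fold in replete medium, against 1.38% of all genes, and the median was -0.12. The TE of the 3 X-linked members was at -0.10 to -0.19 in that medium, against -0.05 for all X-linked genes, so there their lower footprints went with lower RNA. Without leucine the log2 TE of Atp6ap2 was 0.08 in WT and -0.37 in KO cells, and that of Lamp2 0.06 and -0.18. Atp6ap1 was at 2.39 and 2.35. The KO comparisons and the leucine comparisons share libraries and are not independent of each other.

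**Figure D5:**
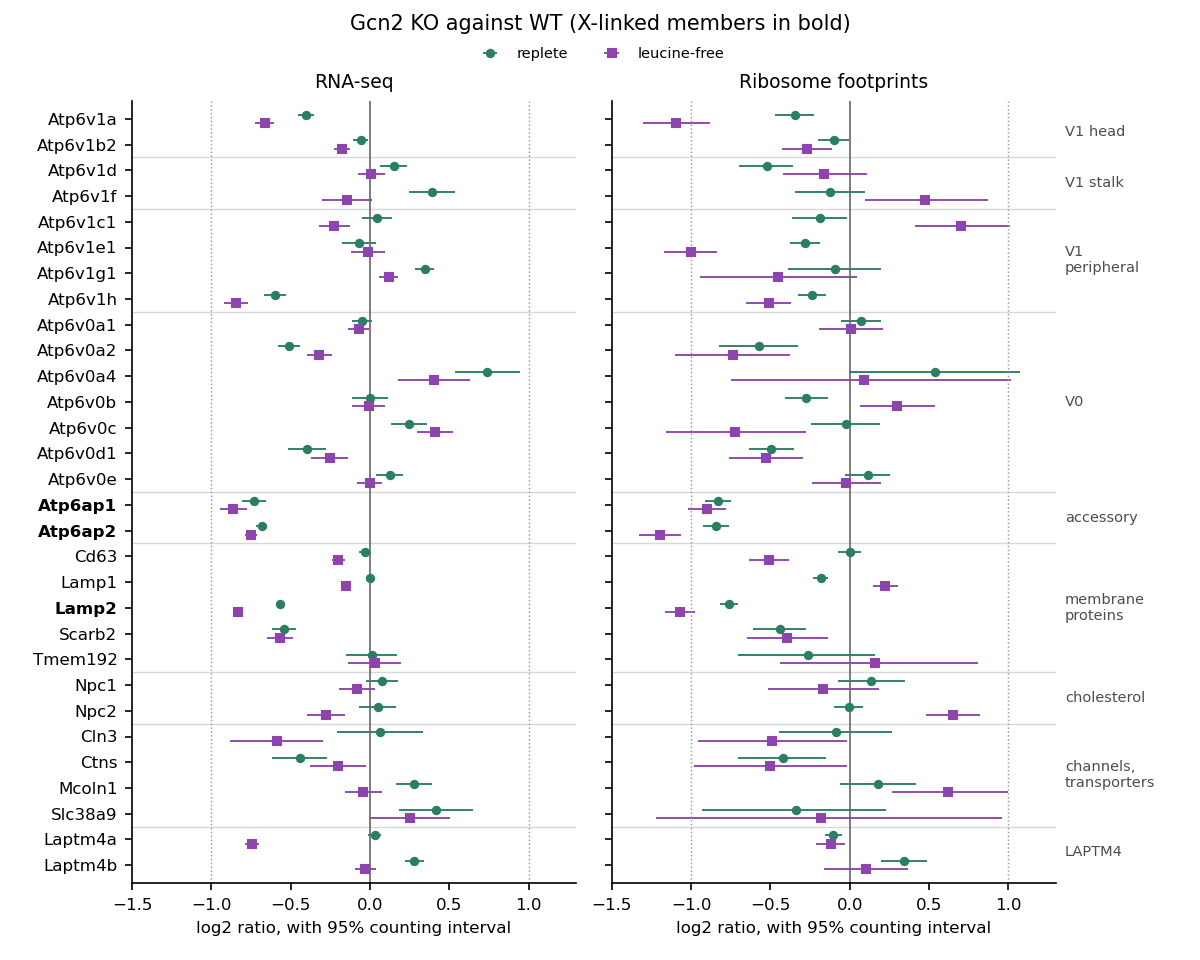
Log2 ratio of KO against WT for each member in RNA-seq (left) and footprints (right), in replete (circles) and leucine-free (squares) medium. Bars are 95% counting intervals, dotted lines mark 2-fold and the 3 X-linked members are in bold. Atp6ap1, Atp6ap2 and Lamp2 lie left of 0 throughout, as do 9 autosomal members, and Atp6ap2, Lamp2, Atp6v1a and Atp6v1e1 pass the 2-fold line in footprints without leucine.

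Other genes of the pathway were taken from lists of 53 genes, of which 46 were measured in RNA and 42 in footprints. In WT cells their RNA median without leucine was -0.02, with 20 of 46 above 0, and no gene passed 2-fold. Their TE median was 0.10 in WT and 0.15 in KO cells, beside -0.30 and -0.16 for the members. In TE 1 gene of 42, Mfsd8, of the lysosomal membrane, fell past 2-fold, in WT cells (-1.01, with footprint counts of 79 and 10). Of all genes 2.93% passed there in either direction. Among the MiT/TFE factors Tfe3 stood highest, at 81.2 and 82.2 CPM in WT and 56.9 and 61.6 CPM in KO cells. Tfeb was at 2.0 to 3.4 CPM and Mitf at 0.4 to 1.2 CPM. Mitf RNA rose past 2-fold in KO against WT replete cells (1.54), from 17 and 46 counts, where 6.86% of all genes passed in either direction. X-linked genes of these lists also had lower RNA in KO cells. RNA of Tfe3 was at -0.51 and -0.42, of Vma21, a pump assembly factor, at -0.60 in both media, and of Rragb, a Rag GTPase, at -0.69 and -0.81. Footprints of Tfe3 were nearer to level, at -0.21 in replete and -0.06 in leucine-free medium. Footprints of Vma21 fell by 1.28 in replete medium, and those of Rragb by 1.48 and of Lamtor3, a Ragulator subunit on chromosome 3, by 1.14 in leucine-free medium. No other listed gene passed 2-fold in these footprint comparisons, where 3.03% and 7.23% of all genes did in either direction.

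The 7 members with the E-boxes printed above all had RNA above 0 in WT cells without leucine, with a median of 0.30. They were Atp6v0b (0.47), Atp6v0e (0.39), Cln3 (0.33), Mcoln1 (0.30), Atp6v0d1 (0.22), Lamp1 (0.17) and Atp6v1a (0.09). The 16 measured members whose windows lacked the motif had a median of 0.10, with 14 above 0. Over all genes the medians were 0.01 for 1054 genes with the motif and 0.00 for 7589 without. In KO cells the members' medians were 0.02 with the motif and -0.02 without. The WT minus KO differences in RNA were alike, with medians of 0.15 with the motif and 0.14 without. RNA ratios of WT cells also fell with exonic length, as given above, and the part of length in these medians was not tested. Atp6v0b (0.46), Atp6v0d1 (0.36) and Atp6v0e (0.26) were higher without leucine in KO cells too, while Cln3 was at -0.32 and Atp6v1a at -0.17. In footprints of WT cells the medians were 0.01 with the motif and -0.14 without.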

How the data were processed

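The authors deposited raw read counts for each gene, made with featureCounts 1.6.4 and Ensembl 96 exons, per the file headers, which show no setting for strand or for reads with several hits or several genes. The submitters' processing notes also name cutadapt, STAR, Subread and GRCm38. Symbols matched 55450 of 55536 genes, and gene class came from RefSeq (GRCm38.p6). Counts were scaled within each assay by TMM (trimmed mean of M-values) factors over measured genes (edgeR 4.0.16, R 4.3.3), and log2 ratios used a prior count of 0.5. Ratios of 2 libraries carry exact conditional binomial (Clopper-Pearson) intervals, and TE and WT minus KO differences carry Wald intervals. Coverage of the intervals was tested only on simulated counts that held counting error alone, so it says nothing of other sources of error. Exonic length includes every annotated exon, so long rare isoforms lower an RPKM. Exons shared with other genes made up 5.31% to 11.8% of Atp6v0a2, Atp6v0a4, Atp6v0b, Cln3, Lamp1, Npc1 and Tmem192. Protein sequences and coding lengths were not used here, so the planned comparison with leucine content was not made. Members and lists were chosen with earlier results of these data known. Named were members past 2-fold, the 3 most extreme footprint differences each way, the 3 highest and lowest TE, and the leading isoforms; other genes were named after their values were seen. The alternatives are in the closing section.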

Additional observations from a re-analysis of the deposited data

Results flagged for a closer look

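The TE of Atp6v1c1 and Atp6v1f moved in opposite directions in the 2 genotypes. Atp6v1c1 stood at -0.77 in WT and 0.39 in KO cells without leucine, a difference of -1.16, and Atp6v1f at -0.73 and 0.40, a difference of -1.13. Every interval of these TE values left out 0, but each value rests on 1 library per group, so the difference was not tested across cultures. In KO cells Atp6v1f RNA was at 20.9 and 17.0 RPKM and its footprints at 40.7 and 43.8 RPKM. Its higher TE there thus went with lower RNA more than with higher footprints. The WT leucine-free footprint counts were 126 and 80. A WT minus KO difference in TE past 2-fold was found in 7.81% of all genes. Atp6v1f no longer passed 2-fold once the length trend was removed.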

How the results depend on the processing

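Scaling by DESeq2 1.42.0 size factors or to total counts, minimum means of 1 or 100 counts and removal of the trend with exonic length were planned; TMM factors over all protein-coding genes and autosomal members alone were added after seeing the data. The medians of the leucine comparisons kept their direction in all 3 quantities. With the length trend removed the RNA median in WT cells without leucine was 0.07 instead of 0.20, and TE of KO against WT in leucine-free medium had 2 members past 2-fold (Atp6v0c and Atp6v1e1) instead of 1. With total counts that comparison had 3 (Atp6v0c, Npc2 and Atp6v1c1). With a minimum mean of 1 count, 1 member passed in RNA of WT cells without leucine, Atp6v1c2, with 0 and 6 counts. With TMM over all protein-coding genes 1 member, Atp6v0b (-1.06), passed in TE of WT cells without leucine, Npc2 (-1.06) passed in the WT minus KO difference in TE, where it also passed with total counts (-1.05) and, at the threshold, with the length trend removed, and Atp6v1e1 footprints of KO against WT stood at -0.99, no longer past 2-fold. Among autosomal members 2 passed in footprints of KO against WT in leucine-free medium, instead of 4. Medians near 0 changed sign: RNA of KO against WT replete cells (0.01) was at -0.04 with the length trend removed, TE of KO against WT leucine-free cells (-0.06) at 0.02 with total counts, and the WT minus KO difference in TE (0.02) at -0.05 with total counts. No paired analysis was possible because each group holds 1 library, so that the groups share fewer than 2 replicate numbers. Footprint depth limits Slc38a9, Atp6v0a4 and Tmem192 most, with 13, 18 and 34 counts in WT leucine-free cells.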
